A study of Mus musculus with 6 samples.

Results

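The GDNF receptor genes examined here are Gfra1, Gfra2, Gfra3, Gfra4, Ret, Gdnf and Ncam1. They were chosen by name and not by their values, with earlier results of these data known. All 7 had a row among the 24495 gene symbols of the deposited count table, and all 7 passed the filter on low counts. Their RNA was measured in cultured spermatogonial stem cells, which sustain sperm production in the testis, derived from DBA2 mice at postnatal days 5 to 8. In the tested cultures 2 uM EPZ5676 was present for 2 weeks. EPZ5676, also called pinometostat, inhibits the histone H3 lysine 79 methyltransferase DOT1L. The control cultures received 0.2% ethanol over the same time. Each group had 3 libraries, numbered 1 to 3 and called biological triplicates in the design text, so the 2 groups share strain, age, culture and library kit and differ in the agent. An ethanol percentage is recorded for the control cultures and not for the EPZ5676 cultures. The labels do not say whether equal numbers mark cultures grown side by side, nor whether feeder cells were present.

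GDNF, glial cell line-derived neurotrophic factor, is secreted by the somatic cells around spermatogonia and is needed for the self-renewal of spermatogonial stem cells. It binds GFRA1, a co-receptor anchored to the membrane without a kinase of its own, and the complex recruits RET, the transmembrane tyrosine kinase that carries the signal into the cell. GFRA2, GFRA3 and GFRA4 are the related co-receptors preferred by neurturin, artemin and persephin, and the neural cell adhesion molecule NCAM1 is an alternative signalling partner of GFRA1, known mainly from neurons.

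Total gene counts ran from 19866337 to 54645903 in the EPZ5676 libraries and from 17784332 to 21046473 in the ethanol libraries, so 1 count was worth 0.0181 to 0.0511 CPM in EPZ5676 libraries and 0.0474 to 0.056 CPM in ethanol libraries. CPM is the usual depth-scaled count, with TMM scaling of library sizes. The culture label was checked against 12 germ cell markers, including Ddx4, Dazl and Zbtb16. All 12 were detected above 1 CPM, with summed levels of 4986 to 5207 CPM in EPZ5676 libraries and 4757 to 5343 CPM in ethanol libraries. Single markers were less even than this sum. Zbtb16 (395 CPM with EPZ5676 and 364 CPM with ethanol) and Nanos3 (30.7 and 28.4 CPM) were lowest in replicate 2 of each group. Tex101 was highest there (264 and 245 CPM). Both replicate 2 libraries stood apart on the first principal component, at 25.1 for EPZ5676 and 39.6 for ethanol, against -18.0 to -13.5 for the other 4. Of 13 fibroblast markers, none at 0, 11 had a negative and 2 a positive log2 fold change, with a median of -0.23, against -0.01 for all genes tested. In edgeR 0 of the 13 were lower at an unadjusted p under 0.05 without the replicate block and 6 with it, where 9.51% of all genes were lower, and the blocked median was -0.28. The median was -0.14 without both replicate 2 libraries and -0.06 without ethanol replicate 2. Fn1, the fibronectin gene and the most abundant of the 13, was at 683 ± 40.4 CPM with EPZ5676, against 683 ± 179 CPM with ethanol (SD, n = 3 each). Its level was 654, 665 and 729 CPM in EPZ5676 libraries 1, 2 and 3, against 557, 887 and 604 CPM in ethanol libraries 1, 2 and 3. The summed level of the 13 was highest in the replicate 2 libraries. It was 1726 CPM in EPZ5676 replicate 2 and 1325 and 1397 CPM in EPZ5676 replicates 1 and 3. It was 2233 CPM in ethanol replicate 2 and 1317 and 1429 CPM in ethanol replicates 1 and 3. In bulk RNA, fewer cells of a type and less RNA per cell cannot be told apart.

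Windows from the RefSeq promoter table were kept for 3 of the 7 genes (Gfra1, Gfra4 and Gdnf). The lack of a window for the other genes does not show that the table has no entry for them. The Gfra1 promoter is printed to show the start region of the gene with the smallest p among the 7. It covers 250 bases before and 50 bases after the start site, at chr19:58455349-58455648 on the minus strand of GRCm38.p6, a build other than the mm9 named in the submitters' processing notes. The gene counts do not read this region itself. It is given 5′ to 3′ with each CG dinucleotide in capitals.
Gfra1 promoter: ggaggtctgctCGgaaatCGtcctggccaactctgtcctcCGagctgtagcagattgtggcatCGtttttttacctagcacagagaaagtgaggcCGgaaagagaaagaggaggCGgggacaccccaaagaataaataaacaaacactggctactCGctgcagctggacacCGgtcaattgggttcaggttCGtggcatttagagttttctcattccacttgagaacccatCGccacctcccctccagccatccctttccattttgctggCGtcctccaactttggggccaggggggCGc
This window holds 12 CG dinucleotides, and 39.6% of the 32851 promoter windows of this length hold at least as many.

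To compare genes with each other, CPM was divided by the exon length of each gene in kilobases (GENCODE M21). On this scale Ret was the highest of the 7, at 19.2 ± 1.46 CPM per kb with EPZ5676, against 25.0 ± 7.40 CPM per kb with ethanol (SD, n = 3 each). Gfra1 was the highest co-receptor, at 11.2 ± 1.65 CPM per kb with EPZ5676, against 15.0 ± 0.711 CPM per kb with ethanol. Gfra3 followed at 9.53 ± 1.53 CPM per kb with EPZ5676, against 8.73 ± 1.56 CPM per kb with ethanol, and Gfra4 at 3.06 ± 0.257 CPM per kb with EPZ5676, against 3.27 ± 0.958 CPM per kb with ethanol. Ncam1, Gdnf and Gfra2 were lower, with means of 1.12, 0.412 and 0.142 CPM per kb with EPZ5676 and of 1.30, 0.682 and 0.124 CPM per kb with ethanol. The order of the 7 was the same in every library. It rests on these exon lengths, and the annotation behind the counts is not given. Gfra1 and Gfra3 were close in EPZ5676 replicate 1, at 11.5 and 11.1 CPM per kb. Across all 6 libraries the ranges of Gfra1 and Gfra3 overlapped, as did those of Ncam1 and Gdnf, while the other neighbours in the order were separated. On this scale the RNA of both parts of the GDNF receptor exceeded that of the ligand in every library.

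The 2 groups were set against each other in an edgeR quasi-likelihood fit of 14855 genes. A Benjamini-Hochberg adjusted p under 0.05 was taken as a call, and 0 of all genes (0%) were called, with 1101 (7.41%) at an unadjusted p under 0.05. limma-voom also called 0 genes and DESeq2 called 50 (0.337%). With the replicate number as a block, which leaves 2 residual degrees of freedom, edgeR called 97 genes (0.653%). None of the 7 receptor genes was among the genes called in either edgeR fit, nor in DESeq2 without the block, and DESeq2 with the block called 1 of them, Gfra1, lower (adjusted p of 0.00735). That DESeq2 fit called 158 genes lower, 1.54% of the 10247 to which it gave an adjusted p, and it gave none to Gdnf, Gfra2 and Gfra4. At an unadjusted p under 0.05, 1 of the 7 (Gfra1) was lower without the block, where 3.57% of all genes were lower. With the block 2 of the 7 (Gfra1 and Ret) were lower, where 9.51% of all genes were lower.

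Gfra1 encodes the co-receptor that binds GDNF and is a marker of the undifferentiated spermatogonia that include the stem cells. Its level was 53.2, 59.2 and 44.0 CPM in EPZ5676 libraries 1, 2 and 3, against 73.0, 68.8 and 66.5 CPM in ethanol libraries 1, 2 and 3. All 3 EPZ5676 libraries were below all 3 ethanol libraries, a pattern that 7.64% of all tested genes showed in this direction. The mean was 52.1 ± 7.65 CPM with EPZ5676, against 69.4 ± 3.30 CPM with ethanol (SD, n = 3 each). The log2 fold change was -0.41 ± 0.12 (SE), with an adjusted p of 0.596 in the edgeR quasi-likelihood test, so the difference did not pass. With the replicate block it was -0.42 ± 0.08 with an adjusted p of 0.0611 in the same test. Gfra1 ranked 169 of 14855 genes by p without the block and 189 with it. The exact permutation test of its level gave a 2-sided p of 0.1, the smallest that 3 against 3 libraries allow.

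Within same-numbered pairs the EPZ5676 to ethanol ratio of Gfra1 was 0.729 (95% interval 0.673 to 0.790) for pair 1. It was 0.861 (0.806 to 0.920) for pair 2 and 0.662 (0.609 to 0.721) for pair 3. These intervals are exact (Clopper-Pearson) and cover counting error only. All 3 intervals lay below 1, and the ratio of pair 2 was nearest to 1. Of all tested genes, 22.3% were lower with EPZ5676 in all 3 pairs. Without both replicate 2 libraries and without the block, the log2 fold change was -0.52 ± 0.11 (SE, adjusted p of 0.131, edgeR quasi-likelihood test). Leaving out pair 2 from the blocked edgeR fit brought the adjusted p of Gfra1 to 0.00116, and leaving out pair 3 to 0.0313. With 1 residual degree of freedom each, these fits called 2.91% of all genes lower without pair 2 and 1.84% without pair 3. Leaving out pair 1 brought the adjusted p to 0.507. In the fit of all 6 libraries without the block, 11 of the 13 fibroblast markers had a negative log2 fold change. In edgeR 0 of the 13 were called there, and 0 with the block. The 3 fits that called Gfra1 also called fibroblast markers, counted in either direction. DESeq2 with the block called 4 of the 13, among 293 genes in all. The blocked edgeR fit called 5 of the 13 without pair 2, among 795 of 14822 genes. Without pair 3 it called 4, among 761 of 14912 genes. The part of fibroblasts in the Gfra1 result was not tested.

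**Figure D1:**
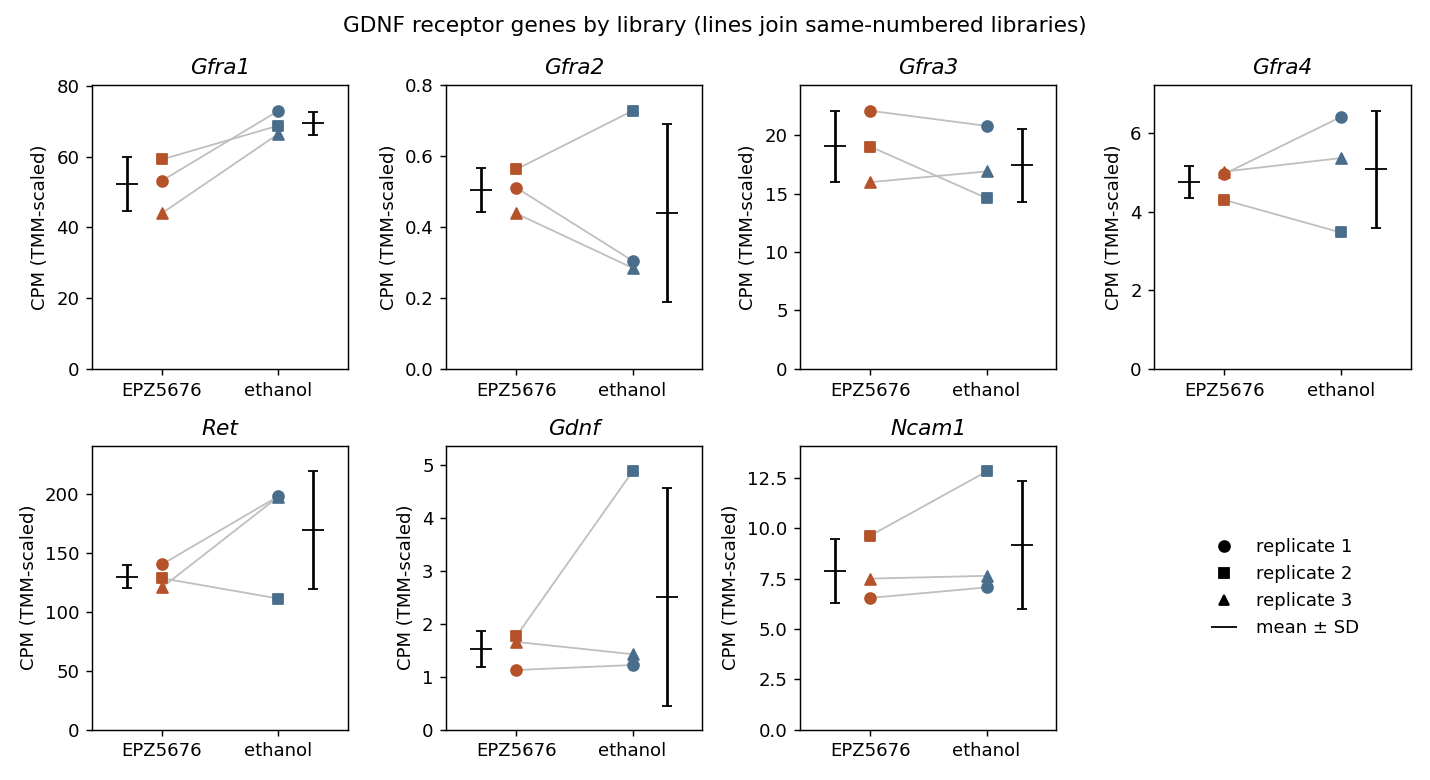
TMM-scaled CPM of the 7 genes in each library, EPZ5676 at left and ethanol at right, with lines joining same-numbered libraries and bars for the mean and SD of 3 libraries. Gfra1 is lower with EPZ5676 in all 3 pairs, while Ret, Gdnf and Ncam1 have an ethanol replicate 2 that lies apart from the other ethanol libraries.

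Ret encodes the receptor tyrosine kinase through which GFRA1 acts. Its level was 140.3, 128.5 and 120.8 CPM in EPZ5676 libraries 1, 2 and 3, against 198.2, 111.3 and 197.8 CPM in ethanol libraries 1, 2 and 3. Ethanol replicate 2 was the lowest of the 6 libraries, so the groups overlapped. The mean was 130 ± 9.86 CPM with EPZ5676, against 169 ± 50.1 CPM with ethanol (SD, n = 3 each). The log2 fold change was -0.38 ± 0.20 (SE, adjusted p of 0.708, edgeR quasi-likelihood test). With the replicate block it was -0.33 ± 0.14, with an adjusted p of 0.265.

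The 3 pairs of Ret did not share a direction. The EPZ5676 to ethanol ratio was 0.708 (95% interval 0.674 to 0.744) in pair 1 and 0.611 (0.581 to 0.642) in pair 3, but 1.16 (1.10 to 1.21) in pair 2. Each of these exact counting intervals excluded 1, with pair 2 on the other side. Without both replicate 2 libraries the log2 fold change was -0.60 ± 0.08 (SE), with an adjusted p of 0.0724 in the edgeR quasi-likelihood test. With the replicate block and without pair 2 it was -0.60 ± 0.06, and Ret was then called lower at an adjusted p of 3.99e-05 with 1 residual degree of freedom, in a fit that called 2.91% of all genes lower. Without pair 3 the blocked value was -0.14 ± 0.11 with an adjusted p of 0.476. Among the ethanol libraries, replicate 2 had the highest fibroblast marker level and the lowest Ret level. Among the EPZ5676 libraries, replicate 2 also had the highest marker level, but its Ret level lay between those of replicates 1 and 3. The blocked fit without pair 2, which called Ret, also called 5 of the 13 fibroblast markers, counted in either direction. The part of fibroblasts in the Ret result was not tested. With library sizes set by the 12 germ cell markers, an alternative chosen after seeing the data, the log2 fold change of Ret was -0.37 ± 0.17 (adjusted p of 0.753, edgeR) and that of Gfra1 -0.41 ± 0.13 (adjusted p of 0.692).

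**Figure D2:**
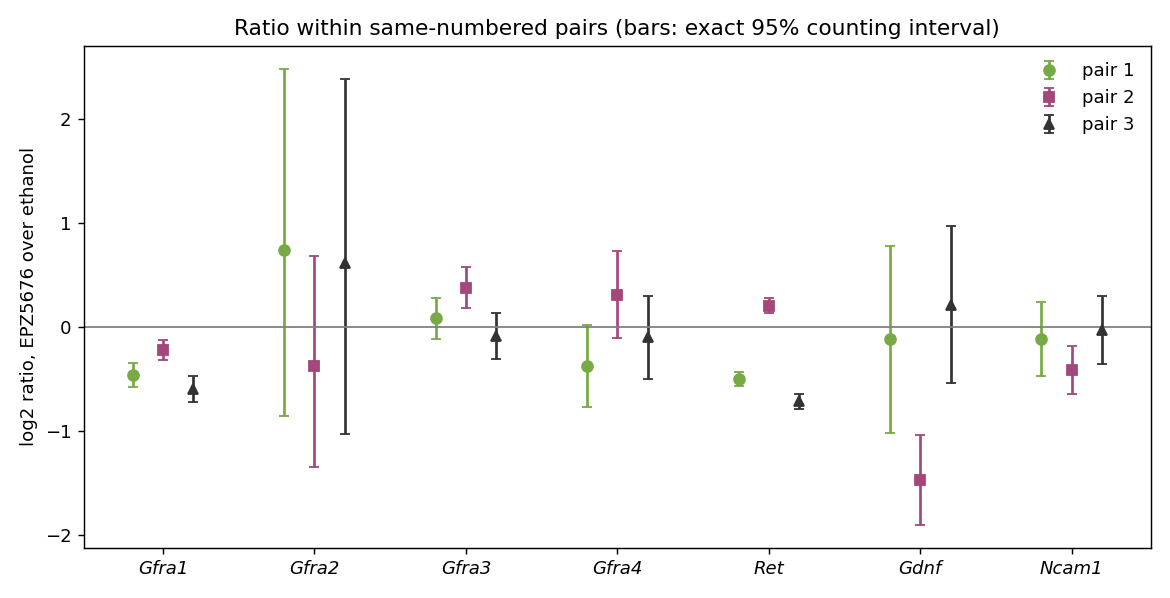
Log2 ratio of EPZ5676 to ethanol within each same-numbered pair, after TMM scaling, with exact 95% intervals that cover counting error only. The 3 pairs of Gfra1 lie below 0 and those of Ret lie on both sides; Gfra2 has wide intervals from its few counts.

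Per kilobase, Ret RNA exceeded Gfra1 RNA in every library. The ratio was 1.81, 1.49 and 1.88 in EPZ5676 libraries 1, 2 and 3, against 1.86, 1.11 and 2.04 in ethanol libraries 1, 2 and 3. The mean ratio was 1.73 ± 0.209 with EPZ5676 and 1.67 ± 0.495 with ethanol (SD, n = 3 each), a difference smaller than the spread between libraries. The lowest ratio in each group belonged to replicate 2.

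Gfra3, Gfra4 and Gfra2 encode the other GFRA co-receptors. Gfra3 was at 22.1, 19.0 and 16.0 CPM in EPZ5676 libraries 1, 2 and 3, against 20.8, 14.6 and 16.9 CPM in ethanol libraries 1, 2 and 3. The groups overlapped, and the log2 fold change was 0.13 ± 0.17 (SE, adjusted p of 0.901, edgeR quasi-likelihood test). Gfra4 was at 4.96, 4.30 and 5.02 CPM in the EPZ5676 libraries and at 6.40, 3.47 and 5.36 CPM in the ethanol libraries, in replicate order. Its groups overlapped too, with a log2 fold change of -0.10 ± 0.24 and an adjusted p of 0.938 in the same test. Ethanol replicate 2 was the lowest library for both genes, as it was for Ret. Without both replicate 2 libraries the log2 fold changes were 0.014 for Gfra3 and -0.24 for Gfra4. The value of Gfra3 was 0.0074 without EPZ5676 replicate 1 and 0.010 without ethanol replicate 2.

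Gfra2, the neurturin co-receptor, was close to the limit of these libraries. It had 10, 31 and 9 counts in EPZ5676 libraries 1, 2 and 3, against 6, 13 and 6 counts in ethanol libraries 1, 2 and 3. These counts correspond to 0.438 to 0.562 CPM with EPZ5676 and 0.285 to 0.728 CPM with ethanol. The log2 fold change was 0.25 ± 0.43 (SE, adjusted p of 0.917, edgeR quasi-likelihood test), and all 3 within-pair counting intervals included 1, so a difference was not detectable at this depth. The value was 0.79 without ethanol replicate 2, 0.0046 without ethanol replicate 3 and 0.044 without ethanol replicate 1.

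Within the GFRA family, Gfra1 made up 65.9%, 71.3% and 67.3% of the summed counts of the 4 Gfra genes in EPZ5676 libraries 1, 2 and 3, against 72.6%, 78.5% and 74.7% in ethanol libraries 1, 2 and 3. The groups did not overlap, although the exact (Clopper-Pearson) 95% intervals of EPZ5676 replicate 2 (69.9% to 72.6%) and ethanol replicate 1 (70.6% to 74.6%) did. The share was lower with EPZ5676 by similar amounts in each pair, with differences of -6.75, -7.27 and -7.42 percentage points for pairs 1, 2 and 3. Most of the difference appeared in the share of Gfra3. It was 27.3%, 22.9% and 24.4% in EPZ5676 libraries 1, 2 and 3, against 20.7%, 16.7% and 19.0% in ethanol libraries 1, 2 and 3. A lower share of one gene raises the shares of the others even where their own levels stay the same. The CPM of Gfra3 itself overlapped between the groups, as given above. Gfra4 was at 5.17% to 7.66% with EPZ5676 and 3.96% to 6.37% with ethanol, and Gfra2 stayed below 1% in all 6 libraries. A share does not depend on how libraries are scaled, and as a score over these genes it was given no test. Counted per kilobase, the mean Gfra1 share differed by -8.70 percentage points, against -7.14 in counts. The summed level of the 4 genes was 76.4 ± 9.58 CPM with EPZ5676, against 92.3 ± 7.06 CPM with ethanol (SD, n = 3 each).

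**Figure D3:**
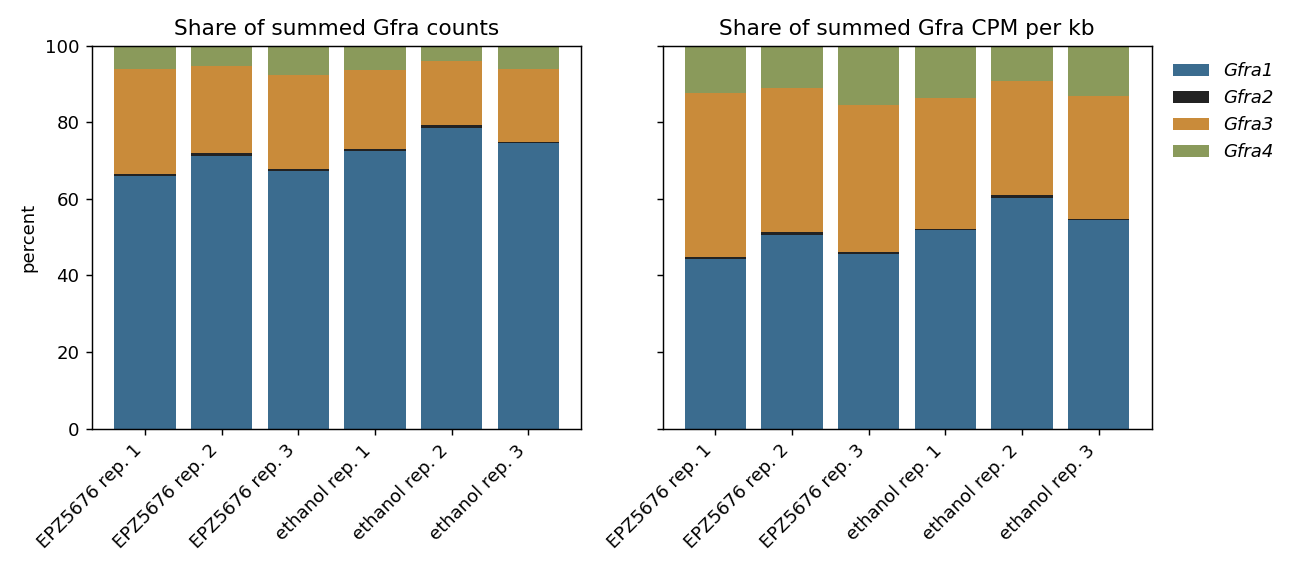
Share of each Gfra gene in the family's summed counts (left) and in summed CPM per kb of exon (right), per library, with the EPZ5676 libraries left of the ethanol libraries. The Gfra1 share of counts is 65.9% to 71.3% with EPZ5676 and 72.6% to 78.5% with ethanol.

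Gdnf, the gene of the ligand, was at 1.12, 1.76 and 1.66 CPM in EPZ5676 libraries 1, 2 and 3, against 1.22, 4.87 and 1.42 CPM in ethanol libraries 1, 2 and 3. Ethanol replicate 2 was far above the other 5 libraries, with 87 counts. The log2 fold change was -0.69 ± 0.51 (SE, adjusted p of 0.795, edgeR quasi-likelihood test), and it was 0.21 without ethanol replicate 2 and 0.075 without both replicate 2 libraries. Within pairs, the ratio of EPZ5676 to ethanol was 0.361 (exact 95% interval 0.268 to 0.488) in pair 2, and the intervals of pairs 1 and 3 included 1.

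Ncam1, the gene of the adhesion molecule, was at 6.54, 9.63 and 7.50 CPM in EPZ5676 libraries 1, 2 and 3, against 7.06, 12.8 and 7.64 CPM in ethanol libraries 1, 2 and 3. Replicate 2 was the highest library in each group, and the groups overlapped. The log2 fold change was -0.20 ± 0.25 (SE, adjusted p of 0.889, edgeR quasi-likelihood test). Ncam1 was lower with EPZ5676 in all 3 pairs, but only the interval of pair 2 excluded 1, at 0.751 (exact 95% interval 0.642 to 0.881). Without ethanol replicate 2 the log2 fold change was 0.11, and without both replicate 2 libraries it was -0.066.

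Across the 6 libraries, Gdnf and Ncam1 had a Pearson correlation of 0.95 in log2 CPM, and Gfra1 and Ret one of 0.50. Several other pairs of these genes were also far from 0, in both directions. Ret had 0.83 with Gfra4 and -0.91 with Gfra2, and Gfra4 had -0.87 with Ncam1 and -0.86 with Gdnf. These values describe 6 libraries that share the replicate 2 offset. Both Gdnf and Ncam1 were highest where fibroblast markers were highest, as given above; the part of those cells in the result was not tested. Sertoli cells, a known GDNF source in the testis, were represented by 8 markers found in the table, with summed levels of 31.4 to 39.8 CPM with EPZ5676 and 32.9 to 46.6 CPM with ethanol. Wt1 alone ran from 17.5 to 35.6 CPM over the 6 libraries. Of these 8, none was at 0 in all libraries and 4 stayed below 1 CPM in every library, among them Amh and Fshr. Peritubular markers, all 6 detected, summed to 49.6 to 82.0 CPM with EPZ5676 and 48.6 to 130 CPM with ethanol, with replicate 2 highest in each group.

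**Figure D4:**
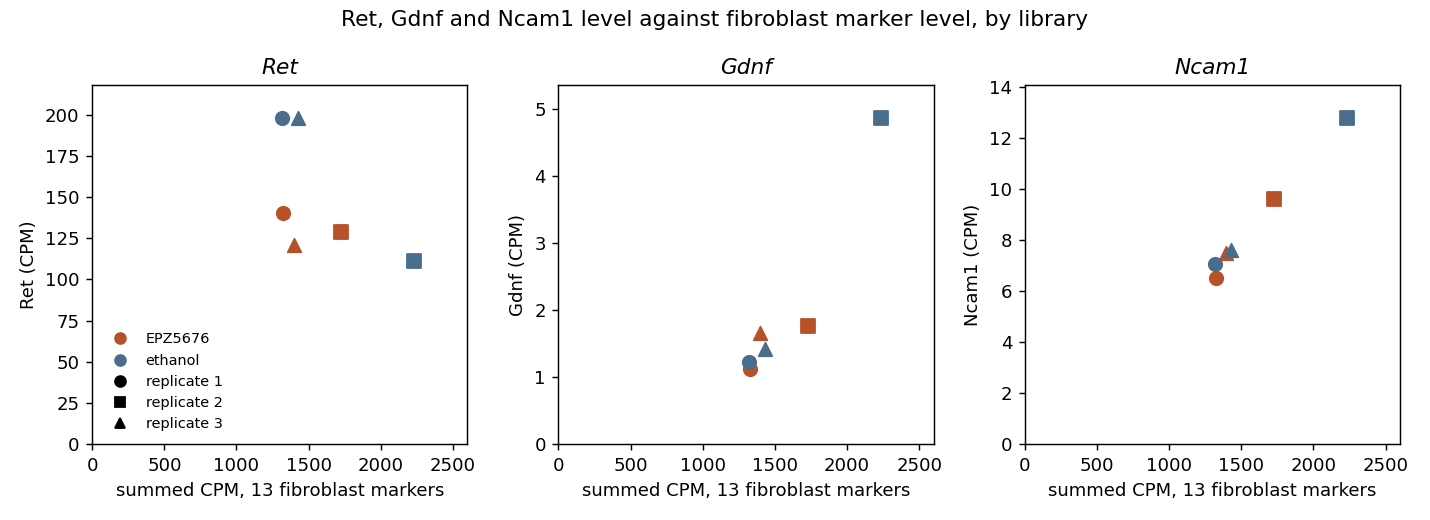
CPM of Ret, Gdnf and Ncam1 against the summed CPM of 13 fibroblast markers, one point per library, coloured by group and shaped by replicate number. Ethanol replicate 2, at 2233 CPM of markers, has the lowest Ret and the highest Gdnf and Ncam1 level of the 6 libraries.

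The genes whose pattern over the 6 libraries was most like that of Gfra1, by Pearson correlation of log2 CPM among 10685 genes averaging 5 CPM or more, were Pde4a, Tmem106a, Sphk1, Hoxb5 and Plod1, with correlations of 0.987 to 0.996. For Ret they were Kirrel2, Nmnat3, Cdca3, Pced1b and Zmat5, with correlations of 0.982 to 0.993. These genes were picked as the highest of 10685 correlations over 6 libraries, a search that returns high values by selection. The correlations describe the 6 libraries and were given no test.

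Other genes around the receptor were described by fixed lists, and 0 of their members were called without the replicate block. Among the ligands and receptors related to GDNF signalling, 5 of 10 genes had enough counts to test, and their median log2 fold change was 0.10, against -0.01 for all genes tested. Sorl1, which encodes the sorting receptor SORLA, known to bind GDNF and GFRA1 and take them into the cell, was at 32.9, 35.4 and 24.5 CPM in EPZ5676 libraries 1, 2 and 3, against 21.4, 24.9 and 18.5 CPM in ethanol libraries 1, 2 and 3. EPZ5676 was higher in each pair, and the groups overlapped slightly, between EPZ5676 replicate 3 and ethanol replicate 2. Its log2 fold change was 0.52 ± 0.17 (SE, adjusted p of 0.596, edgeR quasi-likelihood test). With the replicate block it was called higher, at 0.51 ± 0.09 and an adjusted p of 0.0488 in the same test, where 0.323% of all genes were called higher. Leaving out pair 1 ended that call, at an adjusted p of 0.507, and without both replicate 2 libraries and the block the adjusted p was 0.215. In this list Sort1, which encodes the sorting receptor sortilin, was at 189 ± 8.23 CPM with EPZ5676, against 176 ± 9.33 CPM with ethanol, and Sdc3, the gene of the GDNF-binding proteoglycan syndecan-3, at 17.2 ± 2.61 CPM with EPZ5676, against 16.0 ± 1.38 CPM with ethanol (SD, n = 3 each). Gas1, which encodes a protein related to the GFRA family, was at 2.08 ± 0.437 CPM with EPZ5676, against 2.05 ± 0.0567 CPM with ethanol.

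Of the adaptors, kinases and GTPases that carry the RET signal, 26 of 27 genes were tested, and 0 were called in either edgeR fit. Their median log2 fold change was -0.03, with 17 negative and 9 positive. Among the abundant members, Nras, a RAS GTPase gene, was at 174 ± 6.58 CPM with EPZ5676, against 183 ± 7.30 CPM with ethanol (SD, n = 3 each). Ptpn11, which encodes the phosphatase SHP2, was at 178 ± 16.9 CPM with EPZ5676, against 169 ± 16.8 CPM with ethanol, and Map2k1, the gene of the kinase MEK1, at 177 ± 5.44 CPM with EPZ5676, against 167 ± 1.82 CPM with ethanol. At an unadjusted p under 0.05 in edgeR, 2 of the 26 were higher and 2 lower without the block. Over all 14855 genes, 570 were higher and 531 lower (3.57%). With the block 2 of the 26 were higher and 4 lower, against 1339 higher and 1412 lower (9.51%) of all genes. The pair with the smallest p, Pik3r1 and Plcg1, was chosen after the values were seen. Pik3r1, the gene of a regulatory subunit of PI3-kinase, was at 12.98, 13.80 and 13.68 CPM in EPZ5676 libraries 1, 2 and 3, against 17.6, 19.3 and 21.2 CPM in ethanol libraries 1, 2 and 3. Its groups did not overlap, with EPZ5676 lower, as in 7.64% of all tested genes. Its log2 fold change was -0.52 ± 0.12 (SE, adjusted p of 0.532, and 0.0546 with the block, edgeR). Plcg1, the gene of phospholipase C gamma 1, was at 179.9, 183.4 and 190.5 CPM in EPZ5676 libraries 1, 2 and 3, against 152.9, 131.7 and 152.7 CPM in ethanol libraries 1, 2 and 3. Its groups did not overlap either, with EPZ5676 higher, as in 7.22% of all tested genes. Its log2 fold change was 0.34 ± 0.08 (SE, adjusted p of 0.540, and 0.0517 with the block, edgeR). Of the genes that limit RET signalling, all 9 were tested, 0 were called in either fit, and the median was -0.01. Nedd4, a ubiquitin ligase gene, was at 656 ± 46.6 CPM with EPZ5676, against 624 ± 27.3 CPM with ethanol, and Ptprf, the gene of a receptor phosphatase, at 552 ± 71.1 CPM with EPZ5676, against 512 ± 11.3 CPM with ethanol. Cd2ap, an adaptor gene, was at 228 ± 17.2 CPM with EPZ5676, against 212 ± 13.5 CPM with ethanol, and Lrig1, which encodes a receptor antagonist, at 123 ± 13.1 CPM with EPZ5676, against 122 ± 4.46 CPM with ethanol.

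Genes known to respond to GDNF in cultured spermatogonia had 12 of 14 members tested, 0 called in either fit, and a median log2 fold change of 0.04, with 5 negative and 7 positive. Etv5, an ETS transcription factor gene raised by GDNF, was at 105, 101.1 and 94.2 CPM in EPZ5676 libraries 1, 2 and 3, against 92.7, 84.2 and 87.3 CPM in ethanol libraries 1, 2 and 3. Its groups did not overlap, with EPZ5676 higher, as in 7.22% of all tested genes. Ccnd2, the gene of cyclin D2, was at 350 ± 32.9 CPM with EPZ5676, against 399 ± 94.4 CPM with ethanol, and Mycn at 96.5 ± 22.6 CPM with EPZ5676, against 92.9 ± 11.1 CPM with ethanol (SD, n = 3 each). Egr3, an immediate early transcription factor gene, was at 82.7 ± 22.0 CPM with EPZ5676, against 89.3 ± 8.33 CPM with ethanol. Of the enzymes that add polysialic acid to NCAM1, St8sia2 was tested, at 0.527 ± 0.142 CPM with EPZ5676, against 0.543 ± 0.194 CPM with ethanol, and St8sia4 had too few counts.

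**Figure D5:**
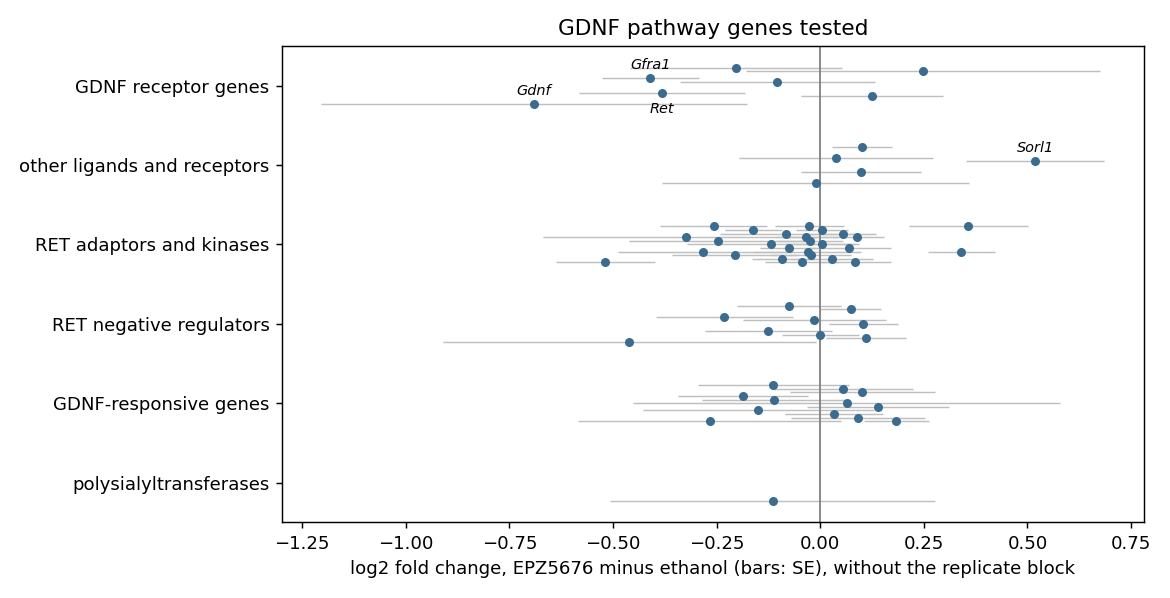
Log2 fold change of EPZ5676 minus ethanol with its SE, in the edgeR fit without the replicate block, for the tested genes of each list; each point is a gene. The genes labelled are Gfra1 (-0.41), Ret (-0.38), Gdnf (-0.69) and Sorl1 (0.52); unlabelled genes such as Pik3r1 (-0.52), Cblc (-0.46), Grb10 (0.36) and Plcg1 (0.34) lie in the same range.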

How the data were processed

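RNA-seq libraries of cultured mouse spermatogonial stem cells were made from TRIzol-extracted RNA with a stranded mRNA kit, per the labels' protocols. The deposited values are whole-number counts per gene symbol. The submitters' processing notes name the mm9 build and Bowtie, STAR, featureCounts and edgeR, without roles or versions. Annotation and use of strand are not given. A second deposited table, of repeat families, was not used.

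These deposited counts entered edgeR 4.0.16 in R 4.3.3 (filterByExpr, TMM, 2-sided quasi-likelihood test, Benjamini-Hochberg adjustment over 14855 genes), beside limma 3.58.1 and DESeq2 1.42.0. The procedure was also run on simulated counts. These did not carry the replicate 2 offset, and no conclusion is drawn from that run. The lowest chi-square per degree of freedom between any of 15 library pairs was 3.64, so no library repeated another. Same-numbered libraries deviated together (correlations of 0.411, 0.614 and 0.335 for replicates 1, 2 and 3, against a bound of 0.1). Of the 6 differently numbered pairs, 2 also passed the bound (0.278 for EPZ5676 1 with ethanol 3, 0.149 for EPZ5676 3 with ethanol 1) and 4 ran from -0.494 to -0.326. All 6 libraries correlated best with their own number, so blocked values are given; the pairing comes from the labels' numbers and this check. Replicate 2 apart in both groups raises the values for 1 and 3, so the bound decides those pairs less firmly.

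The genes and lists were chosen with earlier results of these data known. Named were the 7 genes, the 4 most abundant tested members of each list, any called member, and the 5 best-correlated genes for Gfra1 and Ret; 1 gene that this rule names is not reported here. Where separate cultures are not stated, p-values measure the spread between these libraries. Log2 values for correlations used a prior count of 2, and for permutation tests a pseudocount of 1. Exon lengths came from GENCODE M21. Alternatives covered the block, scaling, filters, tools, left-out libraries and left-out pairs.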

Additional observations from a re-analysis of the deposited data

How the results depend on the processing

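The number of called genes was 0 without the replicate block and stayed 0 with RLE size factors, library totals, both other filters, limma-voom, germ cell marker scaling and each single library left out. It was 97 with the block, 50 with DESeq2, 293 with DESeq2 and the block, and 10 without both replicate 2 libraries. Blocked fits gave 0, 795 and 761 calls without pairs 1, 2 and 3. Gfra1 had a negative log2 fold change under all 19 alternatives, from -0.52 to -0.30, and from -0.51 to -0.30 with single libraries left out (adjusted p of 0.370 to 0.999, edgeR). It was called under 3 of them: DESeq2 with the block (-0.42, adjusted p of 0.00735), and the blocked edgeR fit without pair 2 (-0.52) or without pair 3 (-0.33). Ret was also negative under all 19, from -0.61 to -0.14, and from -0.61 to -0.25 with single libraries left out, and was called under 1, the blocked fit without pair 2 (-0.60). Sorl1 was positive under all 19, from 0.41 to 0.66, and was called under 4, all with the block. Signs turned for Gdnf (0.21 without ethanol replicate 2, 0.075 without both replicate 2 libraries, 0.070 with the block in addition, with single libraries left out -1.02 to 0.21), for Ncam1 (0.11 without ethanol replicate 2, single libraries left out -0.38 to 0.11), for Gfra4 (0.10 without ethanol replicate 1 and 0.10 without pair 1 with the block, single libraries left out -0.32 to 0.10) and for Gfra2 (-0.028 without pair 1 with the block, single libraries left out 0.0046 to 0.79); the cause was not tested. Gfra2 was not tested under the filter of 1 CPM in 3 libraries, nor in the fits without both replicate 2 libraries. Gfra3 was positive under all 19 alternatives but ranged from 0.0066 to 0.27, near 0 without EPZ5676 replicate 1 (0.0074) or ethanol replicate 2 (0.010). Within-pair ratios scaled by library totals kept their direction. Depth limits Gfra2 and Gdnf, whose counts per library ran from 6 to 31 and from 22 to 97.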
